A study of Bos taurus with 68 samples.

Results

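The clones described here carry genes of the vesicle trafficking machinery: small GTPases of the RAB, ARF and ARL families, VPS proteins, sorting nexins (SNX), syntaxins (STX), VAMP proteins and TRAPP subunits (TRAPPC). They were chosen by symbol alone, as every listed clone of the larger array table whose current gene symbol starts with one of these family names, followed by a digit for RAB, ARF, ARL and STX. Of 5693 listed clones, 101 were members, covering 80 genes. They comprised 36 RAB, 4 ARF, 7 ARL, 16 VPS, 17 SNX, 10 STX, 3 VAMP and 8 TRAPPC clones. The symbol rule also took in 6 clones of 5 genes that encode partner proteins and not family members: ARL6IP1, ARL6IP2, ARL6IP6, RAB11FIP5 and RAB5IF.

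The liver RNA came from 5 cows, numbered 6934, 6983, 7079, 7186 and 7188, sampled at 7 times between 65 days before and 49 days after calving (days -65, -30, -14, 1, 14, 28 and 49). Liver and a reference standard RNA were hybridised together on a pair of 2-colour cDNA arrays with the dyes exchanged. The larger table held 60 of the 68 arrays. It covered every cow on days -65, -30, 1 and 28, while days -14 and 14 had 3 cows each and day 49 had 4. The labels name no treatment, so the days of the same animals are the groups, and the composition of the reference RNA is not given in the sources used here.

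RAB and ARF GTPases switch between a GTP-bound state on a membrane and a GDP-bound state in the cytosol, and in the bound state they recruit the coats, motors and tethers that move a vesicle and hold it at its target. Tethering complexes such as HOPS, CORVET, GARP and TRAPP bring the membranes together, SNARE proteins such as syntaxins and VAMPs fuse them, and retromer and the sorting nexins return cargo from endosomes. In hepatocytes this traffic serves the secretion of plasma proteins and lipoproteins, the recycling of receptors for lipoproteins and transferrin, and transport to the bile canaliculus.

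Values are log2 ratios of liver over reference RNA after centring each array on its median, so 0 stands for the median spot of an array. That the ratio runs this way is only likely: 4 of 4 hepatocyte marker genes lay above 0, while for 4 genes typical of other tissues 3 lay below and 1 above. Of the hepatocyte genes, APOA1 lay only just above 0, at 0.060 (adjusted p = 0.686 by limma). With the ratio the other way every sign given here turns, also between days. A ratio says how a gene compares between the 2 RNAs and nothing of how abundant its RNA is relative to another gene's. Of the members, 93 clones of 76 genes were measured in 3 or more cows on all 7 days and were tested among 5280 clones. The 8 clones that fell short were RAB5C clone 1, RAB7A, RAB8A clone 2, SNX16, STX1A and the 3 clones of STX3. Exchanged arrays should oppose each other before the sign is turned, and over all rows they correlated below 0 in 25 of 30 cow-days, but over the members' spots in 15 of 30. The median gap between a tested member's ratio with liver in Cy3 and with liver in Cy5 was 0.54, against 0.56 over all clones, and the 2 orientations had the same sign in 45.2% of tested members, against 46.0% of all clones. The value used is the average of both orientations. A gene-specific dye effect cancels in it only if the effect is equal on both arrays of a pair, which was not tested. Precision is also limited by how many arrays there are.

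Against the reference RNA the trafficking clones as a group lay near the array median. The median ratio of the 93 tested members was -0.010, against -0.0092 over all 5280 clones, and the median size of the ratio was 0.18, against 0.23 over all clones. A difference of at least 2-fold in either direction was reached by 1.08% of members, against 8.64% of all clones, and the 1 member was RAB32. By limma on the means of 5 cows with Benjamini-Hochberg adjustment over all clones, 12 of 93 members (12.9%) lay above the reference, where 22.3% of all clones did. The test placed 24 of 93 members (25.8%) below it, where 25.2% of all clones did. The other 57 did not pass, which does not show that they equal the reference.

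The families spread over a narrow band. Their median ratios were 0.074 for VPS, 0.072 for SNX, 0.067 for TRAPPC, 0.040 for ARL, -0.098 for RAB, -0.13 for VAMP, -0.18 for STX and -0.21 for ARF. Between cows these medians had SDs of 0.060 (ARL) to 0.15 (VAMP, n = 5), so neighbours in this order lay within 1 SD of each other, other than ARL and RAB. The medians of the ARF, RAB and STX families were below 0 in each of the 5 cows, with ranges of -0.28 to -0.12, -0.23 to -0.044 and -0.29 to -0.11. By count, 12 of 33 RAB clones (36.4%) lay below and 2 (6.06%) above, and 3 of 16 VPS clones (18.8%) lay above and 0 below, where 25.2% of all clones lay below and 22.3% above. The difference between families was not tested. Of the 7 ARL clones 4 carry the partner genes ARL6IP1, ARL6IP2 and ARL6IP6, and the ARL median is the value of an ARL6IP2 clone. The sign of several family medians depended on the setting. With only the arrays labelled with liver in Cy5 the ARF median was 0.10 and the TRAPPC median -0.018. The ARL median was -0.29 with liver in Cy3 alone and also with liver in Cy5 alone, -0.016 on uncentred arrays and -0.054 without cow 6983. The STX median was 0.090 with both tables joined, and the SNX median -0.010 over clones measured in every cow-day.

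**Figure D1:**
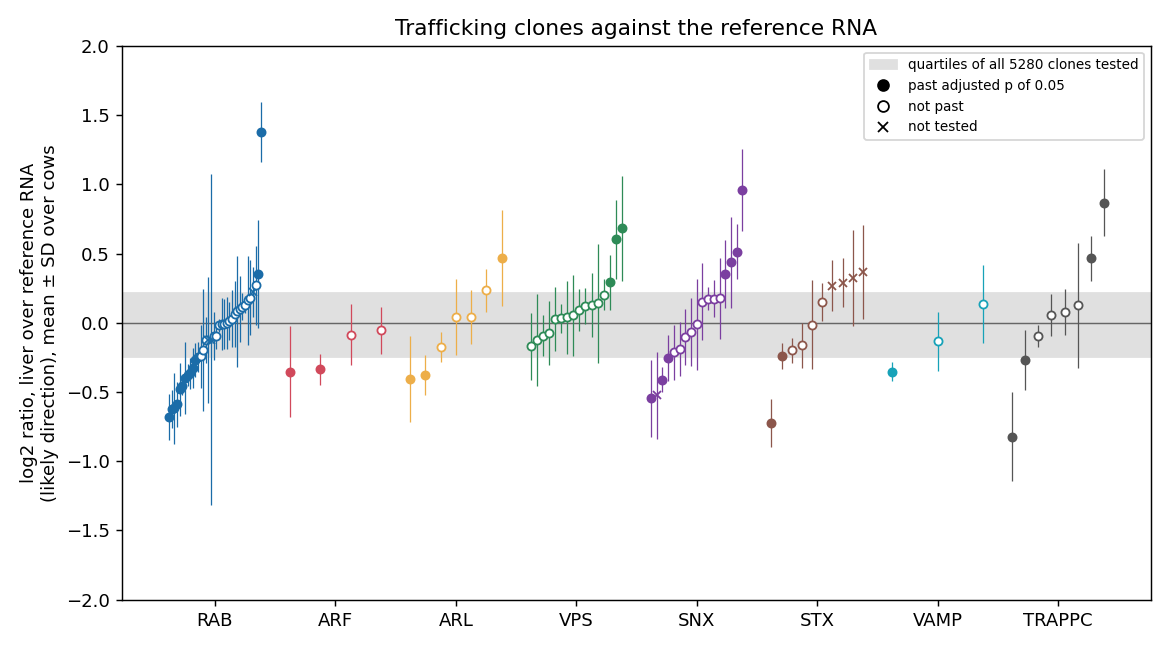
Each point is 1 of the 101 member clones, grouped by family and ordered by its mean log2 ratio of liver over reference RNA, with bars of 1 SD over cows; filled points passed an adjusted p of 0.05 by limma, open points did not, and crosses were not tested. The grey band spans the quartiles of all 5280 clones tested, and RAB32 at 1.38 stands above every other member.

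Among the RABs of early and recycling endosomes, the calls were all below the reference. RAB31 and RAB22A, which act between the trans-Golgi network and early endosomes, each lay below the reference on both of their clones, at -0.33 ± 0.15 and -0.68 ± 0.17 for RAB31 and -0.27 ± 0.12 and -0.62 ± 0.25 for RAB22A (SD, n = 5 cows). RAB15, an endosomal recycling RAB, did so as well, at -0.37 ± 0.11 and -0.63 ± 0.14, though clone 1 was -0.73 on the arrays with liver in Cy3 and 0.0041 on those with liver in Cy5. By cow, in the order 6934, 6983, 7079, 7186 and 7188, RAB31 clone 2 stood at -0.54, -0.65, -0.54, -0.95 and -0.72, and RAB15 clone 2 at -0.63, -0.80, -0.51, -0.72 and -0.47. All 5 cows were below 0 on both clones, and the adjusted p by limma was 1.62e-05 for RAB31 clone 2 and 3e-05 for RAB15 clone 2. Of the 16 tested clones of this subgroup, which also holds RAB4B, RAB5B, RAB5C, RAB11A, RAB11B, RAB14, RAB20 and RAB25, 7 lay below and 0 above, where 25.2% of all clones lay below. The RAB11 effector RAB11FIP5, a partner protein outside this subgroup, also lay below, at -0.40 ± 0.26. RAB11A, the main RAB of recycling endosomes, passed on clone 2 at -0.38 ± 0.079 but not on clone 1, at -0.009 ± 0.18. RAB5B, which drives early endosome fusion, was at -0.24 ± 0.23 and did not pass (adjusted p = 0.061 by limma). The subgroups of the families were drawn up after the members' values were seen, so their counts are descriptions.

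The exocytic RABs, which carry vesicles from the Golgi and recycling endosomes to the plasma membrane, included 2 genes below the reference. RAB10 lay at -0.46 ± 0.063 on clone 1 and -0.48 ± 0.19 on clone 2, and RAB13, a RAB of tight junction and surface traffic in epithelia, at -0.59 ± 0.16. RAB10 clone 1 varied little between cows, at -0.44, -0.57, -0.44, -0.44 and -0.41 in the same cow order, and all 5 values were below 0. RAB10 clone 2 was 0.083 on the arrays with liver in Cy3 and -1.04 on those with liver in Cy5, so the 2 orientations were far apart. RAB8A, a close relative of RAB10, stood at 0.082 ± 0.40 on clone 1 and -0.20 ± 0.44 on clone 3, and neither passed. Clone 1 was 0.93 with liver in Cy3 and -0.77 with liver in Cy5, and clone 3 was -0.70 and 0.31. RAB18, a RAB of lipid droplets and the endoplasmic reticulum, stood at -0.010 ± 0.19, close to the array median. RAB1A, which acts between the endoplasmic reticulum and the Golgi, also did not pass, at -0.12 ± 0.17. RAB37, linked to secretory granules, lay above the reference at 0.35 ± 0.39 (adjusted p = 0.0266 by limma), but was 1.23 on the arrays with liver in Cy3 and -0.53 on those with liver in Cy5.

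RAB32 was the member with the highest ratio. This RAB is known from lysosome-related organelles, such as melanosomes, and from phagosomes of macrophages. Its mean ratio was 1.38, 1.52, 1.42, 1.56 and 1.01 in cows 6934, 6983, 7079, 7186 and 7188, so every cow was above 1. The mean was 1.38 ± 0.22 (SD, n = 5), a 2.60-fold ratio with an adjusted p of 6.98e-09 by limma, and 97.2% of all tested clones had a lower ratio. The 2 orientations were similar, with 1.23 on the arrays with liver in Cy3 and 1.53 on those with liver in Cy5. In the smaller table, an array print normalized separately and not used in the test, its 4 cow-days ran from 0.79 to 1.33. Of the other late endosomal and lysosomal RABs, RAB9A was at 0.13 ± 0.064 and 0.12 ± 0.097 on its clones and did not pass. RAB9A returns mannose 6-phosphate receptors to the Golgi. RAB7B lay below at -0.25 ± 0.11. In the smaller table RAB7B ran from -0.084 to 0.38, with a mean of 0.14, the opposite sign. RAB7A, the main RAB of late endosomes, had values in 26 of 30 cow-days and was not tested, with a mean of 0.22 ± 0.18. RAB7A was 1.98 on the arrays with liver in Cy3 and -1.55 on those with liver in Cy5, so this mean averages far opposite values. Macrophage and Kupffer cell markers also lay above the reference, on 14 of 16 clones, where 22.3% of all clones did. The median of their list lay between 1.04 and 1.72 in the 5 cows, and that of the hepatocyte list between 1.23 and 2.13. Hepatocyte markers lay above on 3 of 4 clones, endothelial on 5 of 8 and lymphocyte and neutrophil on 2 of 4, with 1 below. Stellate cell markers lay below on 9 of 9 clones and bile duct markers on 4 of 9, where 25.2% of all clones did. Which way the ratio runs had been judged from the hepatocyte genes, the stellate genes TAGLN, COL3A1 and COL1A2, and the lymphocyte gene CD3E. The sides on which these genes lie are therefore no separate result. The stellate genes DCN, SPARC and VIM played no part in that choice and lay below as well. The part of any cell type in the RAB32 ratio was not tested. In whole tissue, more cells of a type and more RNA per cell cannot be told apart.

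The ARF and ARL GTPases, which recruit coats and golgins at the Golgi, showed no call above the reference other than 1 ARL10 clone. ARF1, which recruits COPI and clathrin adaptors, lay at -0.35 ± 0.33 and ARF4 at -0.34 ± 0.11 (adjusted p of 0.0177 and 0.00598 by limma). ARF1 was uneven, with -0.18, -0.82, -0.36, 0.065 and -0.48 by cow, 4 cows below 0 and 1 just above, and its call was lost without cow 6983, when it stood at -0.24. ARF4 was below 0 in all 5 cows. ARF3 and ARF5 did not pass, at -0.055 ± 0.17 and -0.086 ± 0.22. ARL1, which recruits golgins to the trans-Golgi network, lay at -0.40 ± 0.31, with -0.078, -0.53, -0.66, -0.066 and -0.69 by cow. Its values formed a group near 0 in cows 6934 and 7186 and a lower group in the others. ARL10 gave 0.23 ± 0.15 on clone 1, which did not pass, and 0.47 ± 0.35 on clone 2, which did, though clone 2 was 1.23 on the arrays with liver in Cy3 and -0.29 on those with liver in Cy5.

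The calls among VPS clones were all above the reference. VPS39, a HOPS subunit that binds RAB7 on late endosomes, lay at 0.68 ± 0.38, VPS25, a subunit of ESCRT-II, which sorts ubiquitinated cargo into multivesicular bodies, at 0.60 ± 0.29, and VPS33B clone 1, of the CHEVI complex, at 0.29 ± 0.20. VPS39 stood at 0.84, 0.49, 0.91, 1.06 and 0.11 by cow and VPS25 at 0.77, 0.15, 0.78, 0.83 and 0.48. All cows were above 0 on both clones, with cow 7188 lowest for VPS39 and cow 6983 lowest for VPS25. The 2 orientations were far apart for VPS39, which was 1.36 on the arrays with liver in Cy3 and 0.0052 on those with liver in Cy5. VPS33B clone 1 was 0.58 with liver in Cy3 and 0.00083 with liver in Cy5. VPS33B clone 2, at 0.13, did not pass. The smaller table gave VPS39 ratios of 0.60 to 2.04 over 4 cow-days, but VPS25 ratios of -1.18 to -0.46, the opposite sign to the larger table, and the reason was not tested. The retromer core subunits VPS26B and VPS29, at -0.17 ± 0.24 and -0.12 ± 0.33, and the HOPS subunits VPS16 and VPS18, at 0.032 ± 0.11 and 0.093 ± 0.15, did not pass. Nor did the ESCRT proteins VPS4A, the ATPase that takes ESCRT-III apart, and VPS28, of ESCRT-I, at -0.094 ± 0.15 and 0.12 ± 0.13, or VPS53 of the GARP tether at -0.074 ± 0.23.

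The sorting nexins went both ways. SNX9, which shapes membrane with dynamin during endocytosis, was the second highest member at 0.96 ± 0.30, with 1.13, 0.72, 0.75, 1.40 and 0.79 by cow, all above 0 (adjusted p = 1.84e-06 by limma). It was 0.76 on the arrays with liver in Cy3 and 1.16 on those with liver in Cy5, and ran from 0.10 to 1.00 in the 4 cow-days of the smaller table. SNX24 lay at 0.51 ± 0.20 and SNX17, which retrieves LDL receptor family proteins from endosomes, at 0.44 ± 0.33. SNX17 had 0.54, -0.14, 0.66, 0.63 and 0.50 by cow, so cow 6983 stood below 0 while the other 4 lay between 0.50 and 0.66. The smaller table gave -0.91 to -0.055 for SNX17, again the opposite sign. Of the nexins that work with retromer, SNX1 lay below the reference at -0.55 ± 0.28, SNX3 at -0.41 ± 0.088 and SNX27, an adaptor for recycling cargo, at -0.25 ± 0.17, while SNX5 clone 1 lay above at 0.35 ± 0.25. SNX1 had -0.52, -1.02, -0.44, -0.30 and -0.45 by cow, all below 0. SNX2, a close relative of SNX1, did not pass on either clone, at 0.18 ± 0.29 and -0.010 ± 0.33.

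Among the SNAREs, the endosomal syntaxin STX7 was the lowest. STX7, which fuses late endosomes with each other and with lysosomes, stood at -0.68, -0.81, -0.89, -0.80 and -0.45 in the 5 cows, all below 0, and averaged -0.73 ± 0.17 (adjusted p = 8.52e-06 by limma). The 4 cow-days of the smaller table ran from -0.54 to 0.11, with 1 above 0. STX6, of the trans-Golgi network, lay at -0.24 ± 0.095 (adjusted p = 0.0367 by limma). It was 0.35 on the arrays with liver in Cy3 and -0.83 on those with liver in Cy5, and its call was lost without any 1 of cows 6983, 7079, 7186 and 7188, with means of -0.25 to -0.21. STX8, STX12 and STX16, at -0.16 ± 0.16, -0.015 ± 0.32 and -0.20 ± 0.088, and STX10 at 0.15 ± 0.14, did not pass. The 3 clones of STX3, an apical membrane syntaxin, were not tested because each lacked a value in 1 of the 3 cows of day 14. They averaged 0.37 ± 0.34, 0.29 ± 0.18 and 0.32 ± 0.35. VAMP3, of recycling endosomes, lay below on clone 1 at -0.35 ± 0.069 and stood at 0.14 ± 0.28 on clone 2, which did not pass. VAMP8, which acts in fusion with lysosomes and in regulated secretion, did not pass at -0.13 ± 0.21.

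The TRAPP subunits had the widest span of any family but RAB. TRAPP is a tether that activates RAB1 in traffic to the Golgi. TRAPPC13 stood at 0.74, 1.11, 0.61, 1.15 and 0.73 by cow and averaged 0.87 ± 0.24, and TRAPPC4, a core subunit, averaged 0.47 ± 0.16. TRAPPC5, another core subunit, stood at -0.71, -1.10, -0.71, -0.40 and -1.19 and averaged -0.82 ± 0.32, the lowest of all tested members. Every cow was above 0 for TRAPPC13 and below 0 for TRAPPC5, with adjusted p of 2.65e-06 and 1.36e-05 by limma. In the smaller table TRAPPC13 ran from 0.32 to 0.89 and TRAPPC5 from -2.89 to -0.89, on the same sides of 0. TRAPPC4 ran from -0.23 to 0.084 there, with a mean of -0.059, the opposite sign. TRAPPC6A lay below at -0.27 ± 0.22. TRAPPC1, TRAPPC8, TRAPPC9 and TRAPPC11 did not pass, at 0.057 ± 0.15, 0.076 ± 0.17, -0.098 ± 0.081 and 0.13 ± 0.45. Of the 36 members past the threshold in all families, 31 had the same sign in both dye orientations, where 45.2% of all tested members did. The calls were made on the average of both orientations, which favours clones whose orientations share a sign. This count is therefore no independent check of the calls. Of the same 36 members, 30 had the same sign in the smaller table, which the test did not use. The opposite sign was found there for RAB37, ARL10 clone 2, VPS25, SNX17 and TRAPPC4, among the 12 called above. Among the 24 called below it was found for RAB7B. Neither the count of 31 nor that of 30 has a share among all called clones to be read beside it.

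For 17 genes more than 1 clone was tested, which shows how far a single clone can be read as its gene. The 2 clones had the same sign of the ratio for 13 of 17 genes and the same sign of the difference between lactation and prepartum days for 11 of 17. Their ratios lay a median of 0.19 apart. The widest gap was 0.49, for VAMP3. The RAB10 and RAB9A clones were closest among the RABs, at -0.46 and -0.48 for RAB10 and 0.13 and 0.12 for RAB9A. Over the 30 cow-days, which share their arrays, the clones of SNX2 correlated at 0.92, those of SNX10 at 0.90 and those of SNX5 at 0.85. The clones of the other 14 genes correlated between -0.44 (RAB14) and 0.45 (ARL6IP2), and those of RAB10 at -0.024.

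**Figure D2:**
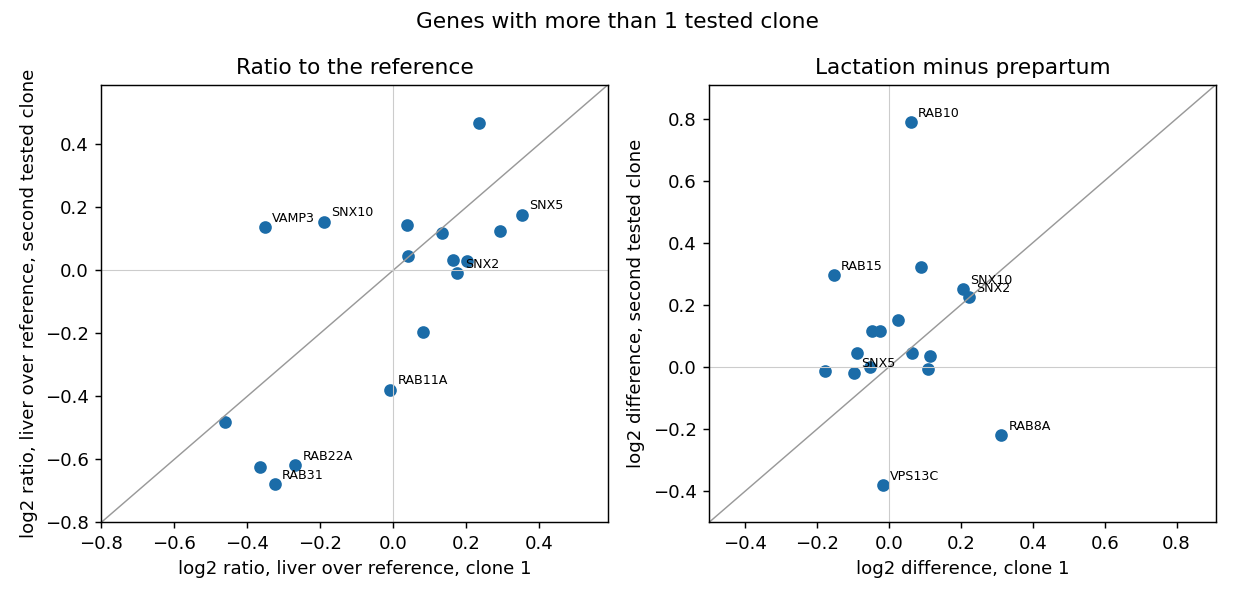
Each point is 1 of the 17 genes with more than 1 tested clone, with the first clone on the horizontal and the second tested clone on the vertical axis, for the log2 ratio of liver over reference RNA (left) and the log2 difference between lactation and prepartum days (right); the line marks equal values. VAMP3 lies farthest from the line on the left, and RAB10, at 0.060 and 0.79, on the right.

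Over the 7 days no member passed the test. The moderated F test of limma on day, with cow as a block, called 0 of 93 members and 0.0189% of all clones, which is 1 clone, and the smallest adjusted p among members was 0.684 (TRAPPC11). At an unadjusted p under 0.05 there were 7 of 93 members (7.53%), where 5.25% of all clones passed. The 5 contrasts, which were day -14 against day -65, day 1 against day -14, day 14 against day 1, day 49 against day 14, and lactation against prepartum, each called 0 members and 0% of all clones. At an unadjusted p under 0.05 they held 1, 0, 2, 1 and 4 members (1.08%, 0%, 2.15%, 1.08% and 4.30%), where 2.99%, 2.31%, 2.75%, 1.99% and 3.86% of all clones passed in that order of contrasts. The design was coarse for single members: the 95% interval of a member reached a median of 0.28 to either side for lactation against prepartum, 0.50 for the first 3 contrasts and 0.54 for day 49 against day 14.

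The family medians were followed over the 7 days without a test of their differences. Each average below is over the cows with arrays on that day, so differences between cows are not taken out. From day -65 to day 49 the RAB median averaged -0.16, -0.088, -0.16, -0.13, -0.13, -0.085 and -0.16 on the 7 days, below 0 on each, with SDs over cows of 0.061 to 0.22. The VPS median averaged 0.17, 0.12, 0.12, 0.023, 0.074, 0.064 and 0.027, above 0 on each day. The STX median averaged -0.18, -0.18, -0.098, -0.12, -0.064, -0.24 and -0.012, with SDs over cows of 0.088 on day 28, its lowest, and 0.12 on day 49, its highest. The SNX median averaged -0.056, 0.26, -0.042, -0.13, 0.16, 0.20 and 0.062. On day 1 it was -0.099, -0.26, -0.080, 0.59 and -0.78 in cows 6934, 6983, 7079, 7186 and 7188, so cow 7186 stood high and cow 7188 low, and in every family the cows' ranges overlapped between all days. Of the 16 SNX clones, 14 had a positive estimate on day 14 against day 1, where 53.3% of all clones did, and of the 16 VPS clones 2 did. On day 49 against day 14, 14 of the 16 VPS clones had a positive estimate, where 49.2% of all clones did. These estimates have cow as a block. Their VPS median was -0.086 on day 14 against day 1 and 0.12 on day 49 against day 14, both opposite in direction to the averages above. None of these estimates passed the test, clones of a family share the same arrays, and only 3 cows had day 14 arrays in the larger table. For lactation against prepartum the family medians lay between -0.093 (TRAPPC) and 0.088 (ARL), against -0.0072 over all clones.

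**Figure D3:**
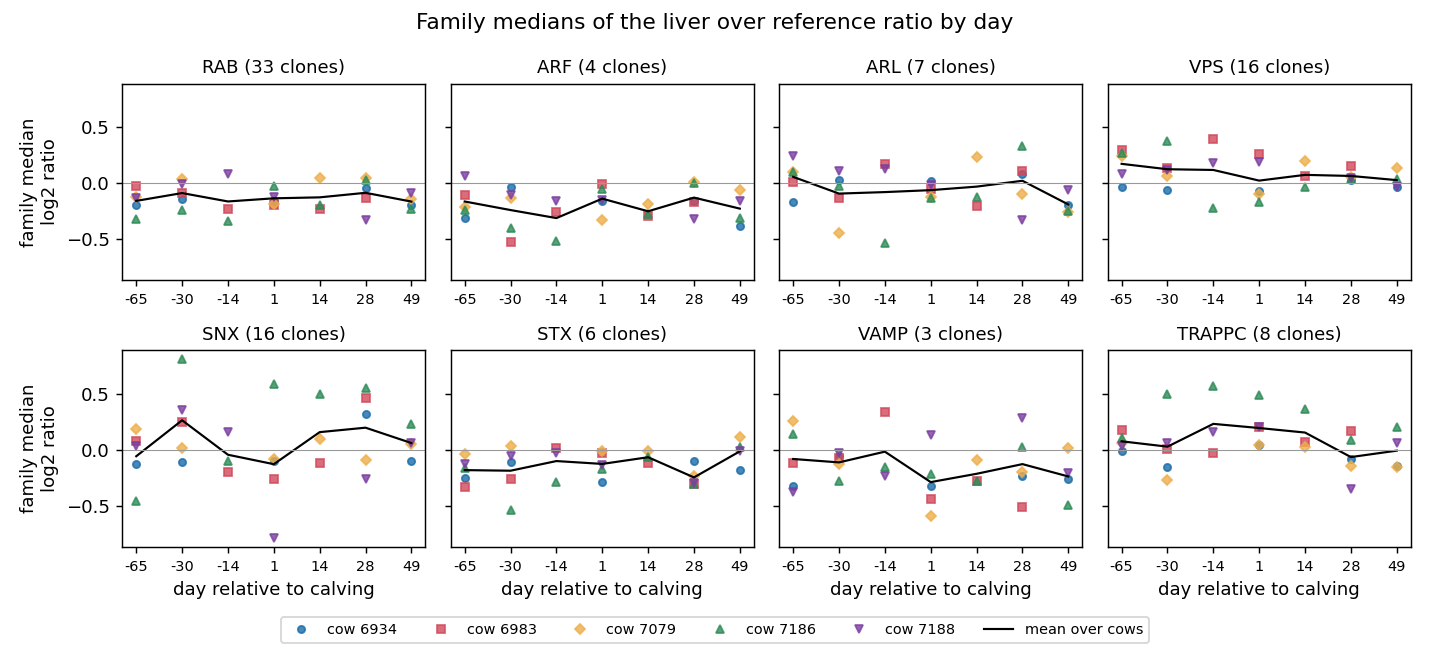
Each panel plots the median log2 ratio of a family's tested clones in each cow (points) and the mean over the cows present on a day (line) against the day relative to calving. The RAB line lies below 0 and the VPS line above 0 on all 7 days, and the cows' points overlap between days in every panel.

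The member with the smallest p for day was TRAPPC11, a subunit of the TRAPP form that acts in autophagy and in traffic to the Golgi. Its ratios were -0.079, 0.45, -0.041, 1.01 and 0.95 on day -65, -0.39, 0.097, -1.09, 0.56 and 0.22 on day -30 and 0.88, 0.45 and 0.52 on day -14. They were 0.14, 0.75, 0.15, 0.72 and 0.66 on day 1 and 0.23, -0.29 and 0.77 on day 14. On days 28 and 49 they were -0.19, 0.14, -0.90, 0.12 and -0.42, and -0.46, -0.82, 0.18 and 0.23. Days -30, 28 and 49 were low and days -65, -14 and 1 high in the mean, with overlap between the cows of these 2 sets of days. The unadjusted p was 0.000555 and the adjusted p 0.684 by limma. Lactation minus prepartum was -0.28 ± 0.11 (SE), lower in 5 of 5 cows, with an adjusted p of 1 by limma. TRAPPC11 was 0.58 on the arrays with liver in Cy3 and -0.32 on those with liver in Cy5.

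For the other members among the 6 smallest day p-values, the means over the cows present on each day, from -65 to 49, are as follows. RAB32 averaged 1.21, 1.68, 1.59, 1.22, 1.34, 1.61 and 1.06, and stayed above 0 in every one of the 30 cow-days. VPS25 averaged 0.57, 1.08, 0.38, 0.53, 0.15, 0.85 and 0.35 and SNX17 averaged 0.40, 0.87, 0.31, 0.19, 0.19, 0.64 and 0.30. All 3 clones had their highest 2 means on days -30 and 28. STX7 averaged -0.90, -0.65, -0.78, -0.71, -0.41, -0.96 and -0.56, below 0 in every cow-day, and was closest to 0 on day 14. RAB10 clone 2 averaged -0.71, -0.55, -1.36, -0.59, -0.21, 0.011 and -0.052, lowest on day -14. RAB5B, next in order, averaged -0.31, 0.11, -0.087, -0.60, -0.31, -0.010 and -0.42. Their unadjusted p-values ran from 0.0247 to 0.0473 and their adjusted p from 0.889 to 0.935 by limma. With arrays weighted by their quality, 5 members passed the day test (RAB8A clone 1, RAB10 clone 2, SNX17, STX7 and TRAPPC11), in a fit that called 261 of all clones, against 1 without weights.

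**Figure D4:**
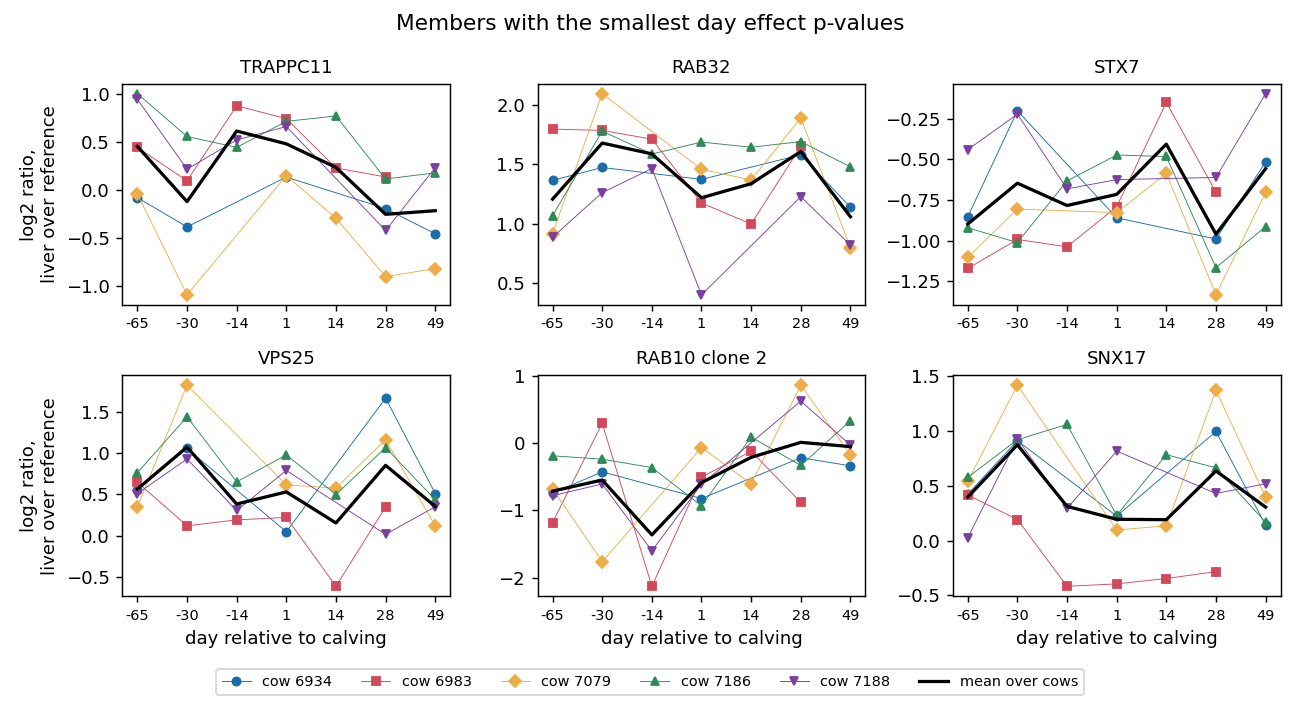
The 6 members with the smallest unadjusted p for day are plotted as log2 ratios of liver over reference RNA against the day relative to calving, with 1 symbol and thin line per cow and a thick line for the mean. RAB32 stays above 0 and STX7 below 0 in every cow-day, and cow 7079 is the lowest for TRAPPC11 on days -30, 14, 28 and 49.

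Lactation against prepartum set days 14, 28 and 49 against days -65, -30 and -14. RAB10 clone 2 had the widest difference. Averaged per cow, in the order 6934, 6983, 7079, 7186 and 7188, it stood at -0.28, -0.50, 0.027, 0.030 and 0.30 on lactation days, against -0.59, -1.005, -1.22, -0.26 and -0.997 on prepartum days. It was higher on lactation days in 5 of 5 cows, and the lowest values were those of cows 6983 and 7188 on day -14 (-2.13 and -1.60) and of cow 7079 on day -30 (-1.76). The estimate was 0.79 ± 0.23 (SE), with an unadjusted p of 0.00237 and an adjusted p of 1 by limma. RAB10 clone 1 gave 0.060 ± 0.13, so the difference was not seen on the gene's other clone.

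RAB18 stood at 0.14, 0.33, -0.11, 0.60 and -0.12 on lactation days, against -0.011, -0.22, -0.38, -0.53 and 0.11 on prepartum days, with cow 7186 far apart between the periods. Its estimate was 0.43 ± 0.27, and 0.17 without cow 7186. STX6 stood at 0.16, -0.47, 0.14, -0.094 and -0.30 on lactation days, against -0.14, -0.49, -0.87, -0.67 and -0.25 on prepartum days, higher in 4 of 5 cows, with an estimate of 0.40 ± 0.17, and 0.27 without cow 7079. On the lower side were VPS39 at -0.39 ± 0.25, VPS13C clone 2 at -0.38 ± 0.22 and VPS25 at -0.30 ± 0.16. VPS13C encodes a lipid transfer protein between the endoplasmic reticulum and late endosomes, and its clone 1 gave -0.017 ± 0.15. VPS39 stood at 1.14, 0.32, 0.93, 0.83 and -0.86 on lactation days, against 0.54, 0.43, 0.87, 1.34 and 0.61 on prepartum days. It was lower in 3 of 5 cows and rested on cow 7188, without which the estimate was -0.16, and VPS13C clone 2 was at -0.10 without cow 7186. VPS25 stood at 1.09, -0.13, 0.62, 0.67 and 0.18 on lactation days, against 0.81, 0.32, 1.09, 0.95 and 0.58 on prepartum days, lower in 4 of 5 cows. The other ESCRT subunits among the members were VPS28 at -0.23 ± 0.095, lower in 5 of 5 cows, and VPS4A at -0.060 ± 0.089. None of these passed the adjusted test by limma.

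**Figure D5:**
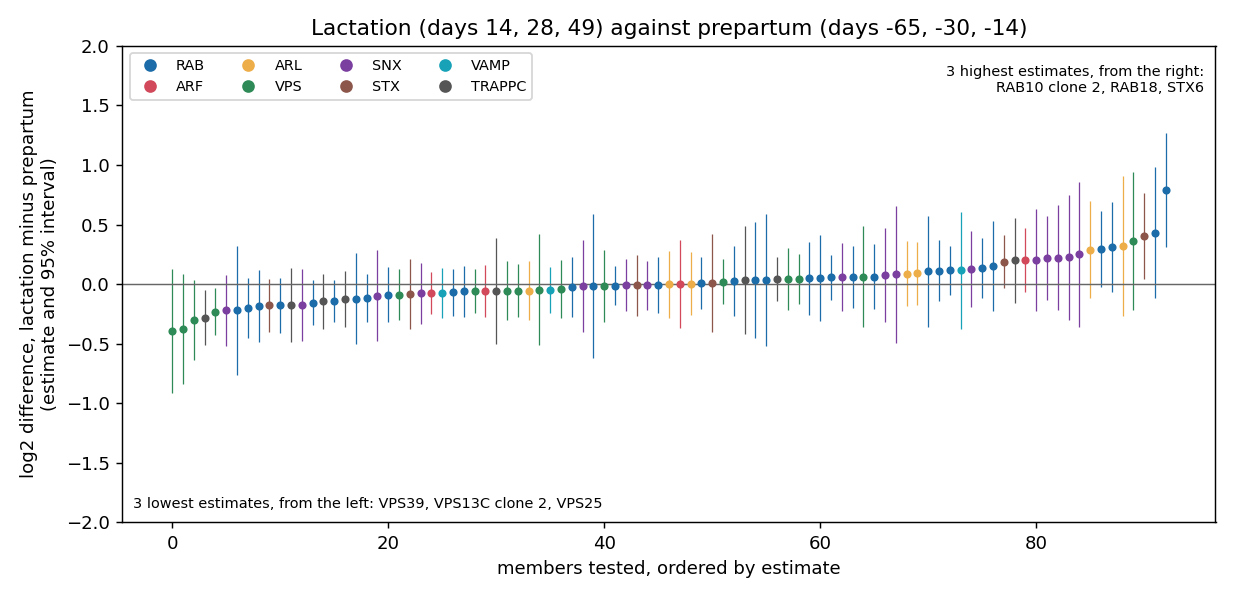
Points give the limma estimate of the log2 difference between lactation days (14, 28 and 49) and prepartum days (-65, -30 and -14) for each of the 93 tested members in order of the estimate, coloured by family, with bars for the 95% interval. Most intervals include 0, and RAB10 clone 2 at 0.79 lies apart at the right.

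Around calving, day 1 against day -14 had both days for 3 cows. The highest estimates were RAB10 clone 2 at 0.83 ± 0.41 (SE), RAB18 at 0.53 ± 0.48 and ARL1 at 0.45 ± 0.35, and the lowest were TRAPPC5 at -0.62 ± 0.39, RAB5B at -0.52 ± 0.26 and RAB8A clone 3 at -0.48 ± 0.47. TRAPPC5 stood at -1.08, -0.95, -0.48, 0.30 and -2.40 on day 1, against -0.96, 0.48 and -0.75 on day -14, with overlap of the 2 days. On day -65 it had stood at -0.98, -1.22, -1.56, -1.63 and -1.90, all 5 below the 3 values of day -14, and day -14 against day -65 gave 1.16 ± 0.39, higher in 3 of 3 cows, with an adjusted p of 0.999 by limma. VPS18 of HOPS and CORVET gave 0.84 ± 0.40 on day 14 against day 1, higher in 3 of 3 cows, and -1.09 ± 0.43 on day 49 against day 14, lower in 2 of 2 cows, with adjusted p of 0.978 and 1 by limma. VPS18 was chosen after its values were seen.

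The test on cow called more clones than the test on day. The F test of limma on cow called 14 of 93 members (15.1%), where 15.8% of all clones passed, so the members' share was near the background. TRAPPC11 had the smallest p, with -0.20, 0.42, -0.50, 0.54 and 0.36 in cows 6934, 6983, 7079, 7186 and 7188 (adjusted p = 0.0108). The retromer subunit VPS29 stood at -0.30, 0.38, -0.016, -0.49 and -0.18, SNX22 at -0.26, 0.19, 0.12, -0.38 and 0.0019 and VPS8, a CORVET subunit, at -0.16, 0.43, 0.17, -0.30 and 0.13. In these last 3 clones cow 6983 was highest and cow 7186 lowest. Over the 14 clones cow 6983 was highest in 9 and cow 7186 lowest in 10, and over the 834 clones called in all cow 6983 was highest in 574 and cow 7186 lowest in 613. The calls rested on these cows: without cow 7186 the test called 0 members and 0 clones in all, and without cow 6983 it called 1 clone in all, a member. The members' leading axis of variation over the 30 cow-days held 30.4% of their variance and correlated at 0.97 with the leading axis of the other listed clones, which held 25.8% of theirs. Both axes share the same arrays. With the other clones' axis as a covariate, a fit added after seeing the data, 1 member passed the cow test, among 3 clones in all.

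Genes that work with these families were taken from lists of regulators, coats and lysosomal proteins. None of the listed clones passed the day test or a contrast. Their calls against the reference are to be read beside the 22.3% above and 25.2% below among all clones, and no list was tested as a whole. RAB regulators and effectors had 2 of 23 clones above and 2 below (EVI5, a RAB GTPase activator, -0.75 ± 0.20), and ARF regulators and effectors had 2 of 17 clones above and 3 below (ACAP2, an ARF GTPase activator, 0.88 ± 0.16). The ARF list includes the members ARL6IP1 and ARL6IP6, and ARL6IP6 is 1 of the 3 below. Other SNAREs and their partners had 5 of 12 clones above and 0 below (STXBP2, a syntaxin-binding protein, 0.74 ± 0.25). Clathrin, adaptor and coatomer coats had 7 of 30 clones above and 8 below, ESCRT and multivesicular body proteins 2 of 17 clones above and 6 below (LITAF 0.99 ± 0.17 on 1 clone and 0.18 ± 0.33 on another, which did not pass), and Golgi tethers with the exocyst 5 of 14 clones above and 3 below. The lysosome and proton pump list had 11 of 39 clones above and 8 below, with CTSB, the protease cathepsin B, at 1.50 ± 0.18 on its highest clone and LAMP2, a lysosomal membrane protein, at 1.45 ± 0.25 on 1 clone and 0.16 ± 0.13 on another, which did not pass. All 8 lysosome list clones below the reference carried proton pump subunits or accessory proteins, such as ATP6AP2 at -1.07 ± 0.28. Of the 15 clones of this kind 6 did not pass and 1, ATP6V0E1, lay above at 0.41 ± 0.24. This division of the list was made after the values were seen.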

How the data were processed

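Liver RNA of 5 cows on 7 days was measured on 68 2-colour cDNA arrays. A Scanarray 4000 scanner and GenePix 4.0 were used, per the labels. What the authors deposited are log2 ratios between the 2 dye channels. How they flagged spots, subtracted background or normalized is not given in the sources at hand, and no intensities were used. Array medians ran from -0.95 to 0.64, and each was set to 0. Arrays with liver in Cy3 had their sign turned, the 2 spots of a clone were averaged, and the exchanged pair gave 1 value per cow and day. Where nothing in the labels says otherwise, p-values measure the spread between these samples only.

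Symbols came from the platform's annotation, updated through RefSeq for 5591 of 5693 clones. Clones annotated to several genes (95) held no member, and 5030 rows with no clone given here were left out. Tests were run within the larger table (30 cow-days), since the smaller one (4 cow-days) is a different print.

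Fits used limma 3.58.1 in R 4.3.3, with day and cow as fixed terms and 19 residual degrees of freedom. The ratio to the reference was tested on 1 mean per cow. All tests were 2-sided, with Benjamini-Hochberg adjustment over 5280 clones and a threshold of 0.05. The code was tested on simulated data. Named members are the 6 smallest day p-values, the 3 widest estimates each way for lactation and for day 1, the 4 highest and 4 lowest ratios, each family's extremes, genes with several clones and the 4 smallest cow p-values. The members, lists and rules were chosen with earlier results of these data known. Alternatives covered centring, scaling, dye orientation, weights, spots, filters, the block, joined tables and each cow left out.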

Additional observations from a re-analysis of the deposited data

Results flagged for a closer look

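In 119 groups of 4 or 5 cows examined among the named members, 4 held a cow whose distance from the nearest other was a large share of the group's range, where chance alone would give about 1 in 20 groups. RAB18 on day -65 stood at -1.82 in cow 7186, with the other 4 cows between -0.28 and 0.21. VPS39 on day 28 stood at -2.27 in cow 7188, with the others between 0.81 and 1.30. RAB8A clone 3 on day 49 stood at -1.45 in cow 7079, with the other 3 between -0.45 and -0.41. SNX17 averaged -0.14 over the days of cow 6983, with the other 4 cows between 0.50 and 0.66.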

How the results depend on the processing

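No member passed the day test or a contrast under any alternative except array weights. Weights gave 5 of 93 members for day, where 261 of 5280 clones passed. They gave 1 member (RAB10 clone 2) for day -14 against day -65, among 87 clones in all. For day 1 against day -14 they gave 1 member (RAB10 clone 2), among 19 clones in all. Cow as a random block or no block changed no such count. The 14 members past the cow test became 0 without centring (0 of all clones), 8 with scaled arrays (549), 1 with the tables joined (10), 1 with liver in Cy5 only (4), 36 with weights (2035, or 38.5%, against 38.7% of members), 0 without the 5 cow-days with exchanged pairs correlating above 0 (0), 9 on the first spot (708), 1 with the other clones' axis as a covariate (3), and 0 to 11 when 1 cow was left out (0 to 834). The 36 members past the reference test became 60 with liver in Cy3 only (24 above and 36 below, 25.5% and 38.3%, where 32.7% and 36.6% of all clones lay there), and the sides were 24 above and 30 below with liver in Cy5 only (24.7% and 30.9%, where 28.5% and 36.7% of all clones lay there).

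Family median ratios moved beyond their spread over cows in these cases. With scaled arrays they were -0.32 (ARF), 0.16 (ARL) and -0.38 (STX), in scaled units. With the tables joined they were 0.14 (ARL) and 0.090 (STX). With liver in Cy3 only they were -0.20 (RAB), -0.51 (ARF), -0.29 (ARL), -0.46 (VAMP) and 0.21 (TRAPPC). With liver in Cy5 only they were -0.0074 (RAB), 0.10 (ARF), -0.29 (ARL) and -0.34 (STX). Leaving out 1 cow gave -0.054 to 0.075 (ARL) and -0.19 to -0.098 (STX). For lactation minus prepartum, arrays left uncentred shifted the median of all clones to 0.14, against -0.0072 centred, and gave 0.17 (RAB), 0.093 (VPS), 0.14 (STX), 0.097 (VAMP) and 0.051 (TRAPPC). Weights gave 0.097 (STX) and -0.15 (VAMP).

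For the named members followed under the alternatives, sign changes are given where the ratio passed before or after the change. With liver in Cy3 only the ratios turned to 0.083 (RAB10 clone 2) and 0.35 (STX6). With liver in Cy5 only they turned to 0.25 (ARF3), -0.29 (ARL10 clone 2), -0.32 (VAMP3 clone 2), 0.28 (VPS29) and 0.30 (SNX22). Called members outside this set also turned with liver in Cy5 only, RAB37 to -0.53 and RAB15 clone 1 to 0.0041. The cause was not tested. Over 390 alternative ratios of named members, 16 calls were lost and 13 gained. Of these ratios 23 changed sign, 3 of them for clones that had passed before the change. Of 502 alternative lactation estimates of named members none passed and 60 changed sign. With at most 5 cows and no intensities, small differences could not be detected. The intervals given are not adjusted for the number of clones tested, so a difference beyond its interval could also fail to pass. RAB10 clone 2, at 0.79 for lactation minus prepartum with a 95% interval of 0.48 to either side, did not pass.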
